A study of Homo sapiens with 4 samples.

Results

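The clustered protocadherin genes are the protein-coding genes whose symbols begin with PCDHA, PCDHB or PCDHG, and they were chosen here by symbol and gene type, with no measured value. There were 53 of them among the 58243 genes of each deposited table: 15 alpha members, 16 beta members and 22 gamma members. All lie on the plus strand of chromosome 5 (GRCh38, GENCODE 29 annotation), with the alpha genes at chr5:140786136-141012347, the beta genes at chr5:141051135-141249365 and the gamma genes at chr5:141330571-141512981. RNA was sequenced from SH-SY5Y, an established human neuroblastoma line. The 2 control libraries (a and b) came from cells given no agent. The 2 SNP libraries (a and b) came from cells exposed over 8 h to sodium nitroprusside, a nitric oxide donor, at a dose the labels do not state, and their RNA is described as oxidized. The treatment notes call the cells differentiated with retinoic acid, for both groups, while the growth notes do not describe that step. The question was which RNAs differ after the treatment. The labels do not tie a library to a culture of its own, so p-values measure only the spread between these samples, which may be technical.

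Clustered protocadherins are cell-surface adhesion proteins of the cadherin superfamily. Each neuron switches on its own subset of them, and cells carrying the same combination recognise each other, which lets the branches of one neuron avoid themselves. In the alpha and gamma clusters each gene has its own promoter and a large first exon (the variable exon), which is spliced to small exons common to the whole cluster. Beta genes have a single exon and no common part. The choice of promoter is known to involve the DNA-binding protein CTCF and the cohesin ring, which loop a distant enhancer to a promoter, and methylation of DNA at the promoters left silent. A short conserved element with the core CGCT lies shortly before the start site in most of these promoters. The members named C-type (PCDHAC1, PCDHAC2 and PCDHGC3 to PCDHGC5) stand at the end of their clusters and are controlled apart from the others.

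Promoter sequence from RefSeq (GRCh38.p14; from 250 bases before to 50 after each annotated start) was matched by symbol for 47 of the 53 members. The stretches printed here are those around the conserved element in the 2 best counted members of each cluster that hold it, in PCDHB15, whose values are discussed further on, and in 2 members of the same clusters that had almost no counts (PCDHA12 and PCDHGB4). Capitals mark the match to the letters searched, which are GATGTCGCT for alpha, GGTGGCGCTG for beta and GNCGCTGT for gamma, on both strands. The letters are the most shared words of 9 (alpha), 10 (beta) and 8 (gamma) letters in these same windows, with the second gamma letter left free, and the motifs overlap in their common core.
PCDHA10: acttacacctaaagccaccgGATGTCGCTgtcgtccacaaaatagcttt
PCDHA4: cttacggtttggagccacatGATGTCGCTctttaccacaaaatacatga
PCDHA12: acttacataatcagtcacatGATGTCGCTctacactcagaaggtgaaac
PCDHB3: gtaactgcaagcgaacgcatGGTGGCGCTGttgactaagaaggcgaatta
PCDHB4: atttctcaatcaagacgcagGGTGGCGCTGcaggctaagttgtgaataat
PCDHB15: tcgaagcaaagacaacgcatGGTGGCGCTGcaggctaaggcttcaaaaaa
PCDHGA7: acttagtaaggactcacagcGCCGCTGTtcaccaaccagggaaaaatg
PCDHGA6: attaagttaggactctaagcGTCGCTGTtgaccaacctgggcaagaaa
PCDHGB4: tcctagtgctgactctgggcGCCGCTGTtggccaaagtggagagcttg

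These stretches lie on the plus strand at chr5:140855832-140855880 (PCDHA10), chr5:140806970-140807018 (PCDHA4), chr5:140875235-140875283 (PCDHA12), chr5:141100384-141100433 (PCDHB3), chr5:141121714-141121763 (PCDHB4), chr5:141245305-141245354 (PCDHB15), chr5:141382643-141382690 (PCDHGA7), chr5:141373829-141373876 (PCDHGA6) and chr5:141387611-141387658 (PCDHGB4). The 47 members had 52 windows, and a member was counted once if any of its windows matched, while the shares over all genes are per window. The alpha letters were found for 9 of 13 alpha members and for none of the 14 beta or 20 gamma members, against 0.105% of all 35116 promoter windows. The beta letters were found for 12 of 14 beta members and for none of alpha or gamma, against 0.276% of all windows. The gamma letters were found for 17 of 20 gamma members, 5 alpha members and 1 beta member, against 4.35% of all windows. Because the letters were picked as the most shared words of these windows, a high share in the own cluster followed from that choice. The windows of all genes include those of the members. The median first base of the match stood at -53 from the annotated start in alpha and at -65.5 in both beta and gamma. Among the tested members with a window, the letters of the own cluster were found for 7 of 8 alpha, 12 of 13 beta and 9 of 10 gamma members. The exceptions were PCDHA9, PCDHB14 and PCDHGB3. Among the members with too few counts they were found for 2 of 5 alpha and 8 of 10 gamma members. They were not found for PCDHA11, PCDHAC1 and PCDHAC2, nor for PCDHGA11 and PCDHGB7. PCDHA12 and PCDHGB4 thus hold the letters of their clusters despite almost no counts, while PCDHA11, the next member after PCDHA10, does not hold them. A match is a description of these letters and not evidence that a factor binds there.

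The libraries held 5613144 to 8056550 counts. The 2 libraries of a group correlated at 0.982 (control) and 0.984 (SNP), against 0.958 to 0.963 between groups (Pearson, log2 CPM across genes). The line's labelled identity was checked on 16 markers of sympathetic neuroblasts, of which 15 stood at 1 CPM (counts scaled to the size of the library) or more in every library, while TH, the enzyme that starts catecholamine synthesis, was at 0 in all 4. Their summed level was 4280 to 4320 CPM in the controls and 3520 to 3570 CPM in the SNP libraries, with 4 of the 15 tested markers higher and 7 lower. DBH, which makes noradrenaline, was at 624 and 720 CPM in the controls and 220 and 297 CPM after SNP, while HAND2, a transcription factor of these cells, was at 530 and 526 CPM and then 681 and 720 CPM. Markers of other cells were low: 8 fibroblast markers summed to 138 to 153 CPM in the controls and 137 to 145 CPM after SNP, 7 glial markers to 2.46 to 2.83 and 1.00 to 1.94 CPM (SOX10, MBP and AQP4 among those at 0), 6 epithelial markers to 4.77 to 7.44 and 6.21 to 6.53 CPM (KRT5 and KRT14 at 0), and 6 blood markers to 1.77 to 2.0 and 1.51 to 2.59 CPM (PTPRC, CD3E, HBA1 and HBB at 0). The part of these marker differences in any result here was not tested. In bulk RNA, fewer cells of a type and less RNA per cell cannot be told apart.

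The alpha and gamma arrays were read over only part of their length, and the break fell at the same genes in all 4 libraries. Of the 53 members, 34 had enough counts to be tested: 9 of 15 alpha, 15 of 16 beta and 10 of 22 gamma. In the alpha cluster the tested members were PCDHA1 and PCDHA3 to PCDHA10, and counts fell away between PCDHA10, whose annotated start is at position 140855883, and PCDHA11, whose start is at position 140868183. PCDHA10 had 25.6 to 31.2 CPM and PCDHA11 had no count in any library. In the gamma cluster the tested members were those from PCDHGA1 to PCDHGA7, and counts fell away between PCDHGA7 (start at position 141382739) and PCDHGB4 (start at position 141387698). PCDHGA7 had 29.6 to 41.1 CPM, and PCDHGB4 had a single count in SNP a and none in the other libraries. The beta cluster had no such break: every member but the first, PCDHB1, was tested, and PCDHB1 had 1 and 6 counts in the controls and 4 and 6 after SNP.

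Of the 19 members that were not tested, 5 had no count in any library: PCDHA11, PCDHGB5, PCDHGA10, PCDHGA11 and PCDHGA12. In a single library a count of 0 allows a level of up to 0.372 to 0.534 CPM (3 counts), a limit that covers counting error only. Another 12 members stayed under 10 counts in every library, among them PCDHAC1, PCDHAC2, PCDHGC4 and PCDHGC5 of the C-type. The other untested members, PCDHA2 and PCDHGC3, reached 10 counts in 1 library each. PCDHA2 had 5 and 4 counts in the controls and 18 and 6 after SNP, so that SNP a stood above the other 3 libraries. PCDHGC3, a C-type member, had 16 and 7 counts in the controls and 2 and 7 after SNP, or 2.46 and 1.24 CPM and 0.251 and 0.905 CPM, so that both SNP libraries stood below both controls on the CPM scale. All 5 C-type members were therefore too sparse to be tested. Gamma members under 10 counts went both ways on the CPM scale. PCDHGB7 had 2 counts in each control and 7 and 9 after SNP, or 0.308 and 0.354 CPM and 0.879 and 1.16 CPM. PCDHGA8 also stood higher in both SNP libraries, and PCDHGC4 and PCDHGC5 stood lower in both.

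The common exons limit what a count of an alpha or gamma gene means. All alpha members share 2866 exon bases in 3 stretches, and all gamma members share 2181 exon bases in 3 stretches. A read lying within these bases alone cannot be assigned to 1 member. How such reads were counted is not given in the sources used here. PCDHA11, PCDHGA10 and the other 3 members at 0 contain these exons, so reads from the common exons, if counted at all, were not credited to every member that holds them. The gene lengths behind the deposited length-scaled values (TPM, a share of transcripts corrected for gene length) matched the full exon length, common exons included, for 48 of 48 members with a count (within 1%). TPM of alpha and gamma members is therefore divided by bases from which those members may have received no reads, which beta genes lack.

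**Figure D1:**
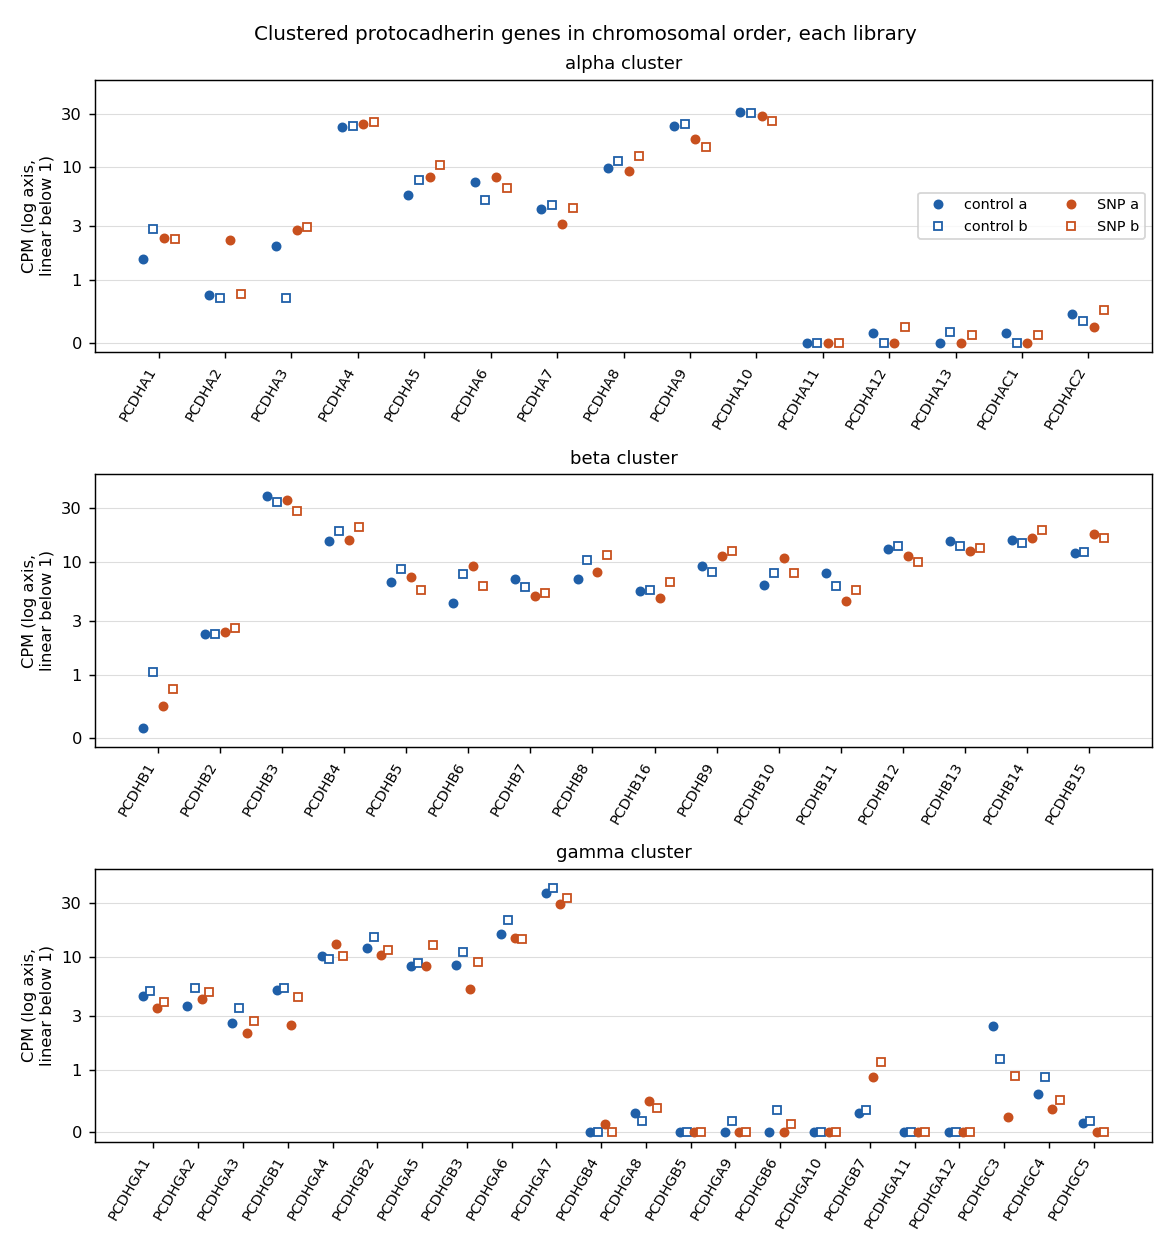
Level of each clustered protocadherin gene in each of the 4 libraries (vertical axis, CPM, logarithmic above 1 and linear below), with genes in chromosomal order along the horizontal axis and 1 panel per cluster; circles are the a libraries and squares the b libraries, blue control and orange SNP. Levels drop after PCDHA10 and after PCDHGA7 in all 4 libraries, while the beta genes stay above 2 CPM from PCDHB2 to PCDHB15.

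Per length, the order of the levels was led by a beta and a gamma gene. Mean TPM over the 4 libraries ran from 1.41 to 50.1 among the tested members. PCDHB3 was at 54.2 and 48.8 TPM in the controls and 52.65 and 44.7 TPM after SNP. PCDHGA7 followed at 31.8 and 35.9 TPM in the controls and 27.3 and 32.0 TPM after SNP, and these ranges did not overlap with those of PCDHB3. The highest alpha gene per length, PCDHA9, was at 10.84 and 11.55 TPM in the controls and 8.86 and 7.94 TPM after SNP. It overlapped with PCDHA8 at 8.39, 10.0, 8.49 and 12.1 TPM, so those neighbours in the order did not separate beyond their spread. A single gene held a large share of the gamma and beta totals in every library: PCDHGA7 made up 33.7% and 32.5% of gamma TPM in the controls and 31.7% and 30.6% after SNP, and PCDHB3 made up 26.6% and 22.5% of beta TPM in the controls and 23.0% and 18.9% after SNP. The PCDHGA7 share was lower in both SNP libraries than in either control, while the PCDHB3 shares overlapped between the groups.

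**Figure D2:**
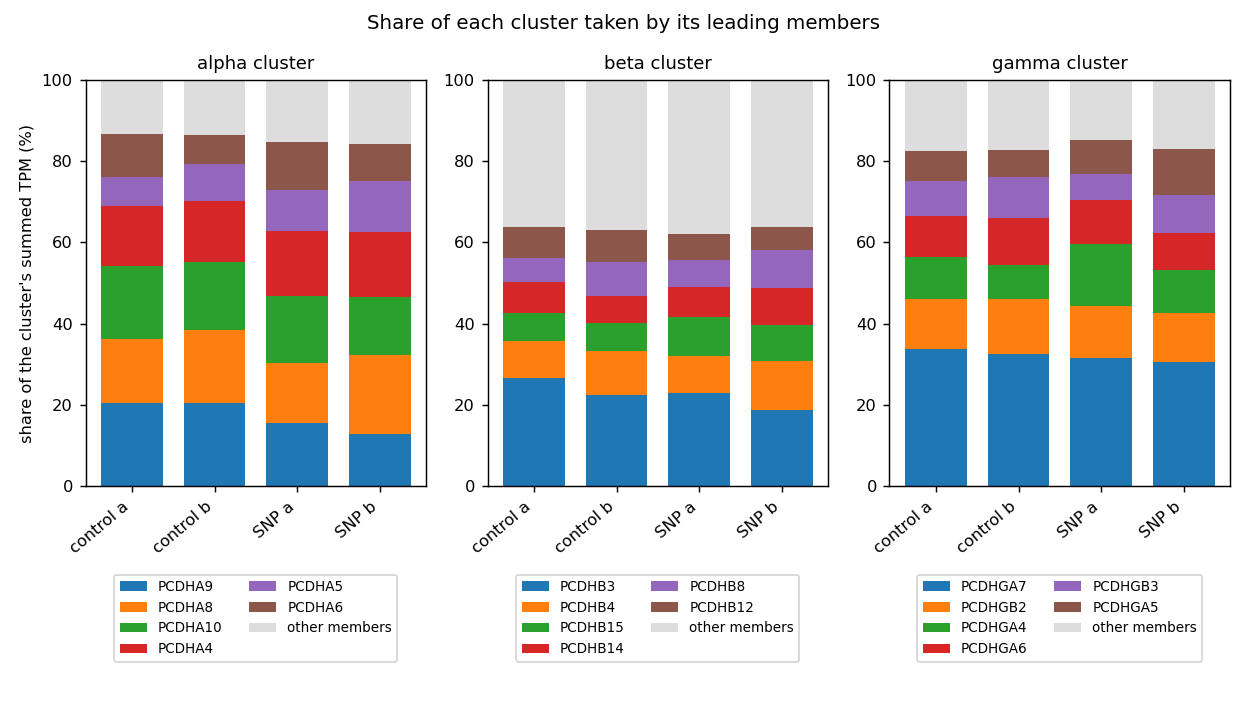
Share of each cluster's summed TPM (vertical axis, percent) held by its 6 leading genes and by the remaining members, as stacked bars for the 4 libraries, 1 panel per cluster. PCDHGA7 holds the largest gamma share in every library (30.6% to 33.7%) and PCDHB3 the largest beta share (18.9% to 26.6%).

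Between the groups, 1 of the 34 tested members differed: PCDHA9 fell after SNP (edgeR quasi-likelihood test, Benjamini-Hochberg adjusted p under 0.05 over all 14759 genes tested). Over all genes tested 26.2% passed the same threshold, 13.6% higher and 12.6% lower after SNP. Among the 7496 genes with a mean level between those of the lowest and the highest tested member (2.11 to 35.2 CPM), 19.2% passed. At an unadjusted p under 0.05 there were 3 members of the 34, PCDHA9, PCDHB15 and PCDHGA7. The share of all genes at that looser cut was not counted, but it is at least the 26.2% that passed after adjustment. DESeq2 called none of the 34 at an adjusted p under 0.05, against 16.4% of all genes. It had 1 member at an unadjusted p under 0.05, a cut at which all genes were not counted. The log2 fold change (SNP minus control throughout) was positive in 18 members and negative in 16, with a median of 0.037 and a range from -0.59 to 1.04. The median over all genes tested was -0.0042. The members' values in the control and SNP libraries did not overlap for 19 of 34 members (8 higher and 11 lower after SNP), against 64.0% of all genes tested (31.7% higher and 32.3% lower). With the library letters as a replicate block, 1 of the 34 members passed, PCDHA9 again, against 30.4% of all genes.

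**Figure D3:**
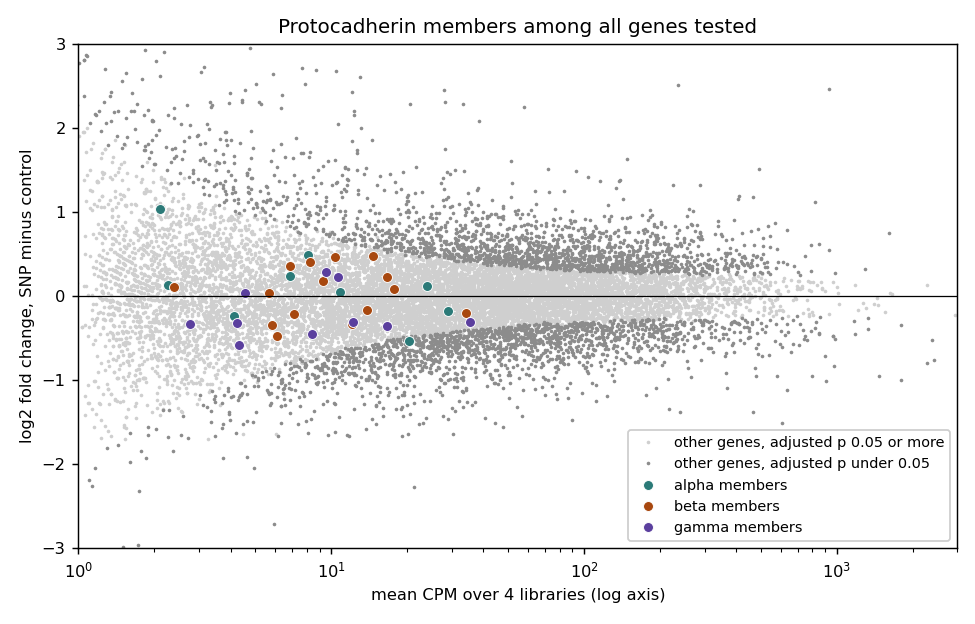
Log2 fold change, SNP minus control (vertical axis), against mean level over the 4 libraries (horizontal axis, CPM, logarithmic) for every gene tested (grey) and for the 34 tested members coloured by cluster; 59 genes lie outside the plotted range. The members lie between -0.59 and 1.04, and at levels of 2.11 to 35.2 CPM.

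PCDHA9 encodes 1 of the alternate alpha isoforms and is the gene just before PCDHA10 (ENSG00000204961, chr5:140847463-141012344). It had 152 and 138 counts in the controls and 142 and 118 after SNP, or 23.4 and 24.4 CPM and 17.8 and 15.25 CPM. Both SNP libraries stood below both controls. The control mean was 23.9 ± 0.746 CPM (SD, n = 2), and the log2 fold change was -0.53 (SE 0.18, 95% interval -0.90 to -0.16, edgeR adjusted p = 0.0333). Its share of alpha TPM was 20.4% and 20.6% in the controls and 15.5% and 12.8% after SNP. The call rested on few libraries: adjusted p was 0.104 without control a, 0.167 without control b, 0.109 without SNP b and 0.141 with DESeq2, and 0.0213 without SNP a, with log2 fold changes from -0.65 to -0.42. PCDHA9 overlaps the antisense gene AC005609.2 by 592 exon bases, and that gene had no count in any library.

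The other well counted alpha genes did not pass. PCDHA10 was the best counted alpha gene, at 31.2 and 30.3 CPM in the controls and 28.75 and 25.6 CPM after SNP. Its SNP libraries both lay below the controls, but by little (log2 fold change -0.18, SE 0.156, edgeR adjusted p = 0.434). It shares 2298 exon bases with the pseudogene PCDHA14, which had no count. PCDHA4 was at 22.6 and 23.4 CPM in the controls and 24.5 and 25.3 CPM after SNP, with a log2 fold change of 0.12 (95% interval -0.23 to 0.46). PCDHA8 was at 9.85 and 11.5 CPM and then 9.29 and 12.7 CPM, with groups that overlapped fully (log2 fold change 0.043, SE 0.241). PCDHA5 was at 5.69 and 7.79 CPM and then 8.285 and 10.5 CPM. Both its SNP libraries lay above the controls, with a log2 fold change of 0.48 and an interval from -0.088 to 1.05 that contains 0. Neighbouring alternate exons thus stood on both sides of 0: of 9 alpha members tested, 6 had positive and 3 negative values, with a median of 0.12 (0.0071 without control a).

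The beta genes had 9 positive and 6 negative values and none passed. Their median log2 fold change was 0.082, and its sign depended on the libraries used. The median was -0.069 without control a and -0.054 without SNP b, but 0.106 without control b and 0.165 without SNP a. PCDHB3 was at 38.9 and 34.4 CPM in the controls and 35.3 and 28.6 CPM after SNP. The groups overlapped, because SNP a stood above control b, and the log2 fold change was -0.20 (95% interval -0.52 to 0.12). PCDHB4 was at 15.4 and 18.95 CPM and then 15.8 and 20.4 CPM, also overlapping, with a log2 fold change of 0.082 (SE 0.199). PCDHB15, the last beta gene, was at 12.2 CPM in both controls and at 17.7 and 16.3 CPM after SNP. Its SNP libraries both lay above the controls, with a log2 fold change of 0.48 (SE 0.202, 95% interval 0.061 to 0.90, edgeR adjusted p = 0.0839). It passed under 1 alternative, a correction for transcript length and base composition described further on (log2 fold change 0.62, edgeR adjusted p = 0.0256). PCDHB14, the gene before it, was at 15.7 and 14.9 CPM in the controls and 16.3 and 19.4 CPM after SNP (log2 fold change 0.22, 95% interval -0.18 to 0.63). PCDHB13 was at 15.5 and 13.8 CPM and then 12.7 and 13.4 CPM, lower after SNP in both libraries (log2 fold change -0.17, SE 0.206). PCDHB14 and PCDHB13, next to each other, had values of opposite sign, and neither interval excluded 0.

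In the gamma cluster 7 of 10 tested members had negative values and the median log2 fold change was -0.32, with none past the threshold. The median was -0.14 without control b and -0.44 without control a. PCDHGA7 was at 37.1 and 41.1 CPM in the controls and 29.6 and 33.2 CPM after SNP. All SNP values lay below all control values (log2 fold change -0.31, SE 0.147, 95% interval -0.62 to -0.0063, edgeR adjusted p = 0.125). PCDHGA6, which directly precedes PCDHGA7 on the chromosome, was at 16.0 and 21.25 CPM and then 14.7 and 14.35 CPM, again with no overlap (log2 fold change -0.35, 95% interval -0.77 to 0.063). PCDHGB2 was at 12.0 and 15.05 CPM and then 10.3 and 11.5 CPM, without overlap and with an interval from -0.77 to 0.16. PCDHGA4 was at 10.15 and 9.56 CPM in the controls and 12.9 and 10.1 CPM after SNP, and PCDHGA5 at 8.31 and 8.86 CPM and then 8.285 and 12.7 CPM. Those last genes overlapped between groups and had positive values of 0.22 and 0.29. Of the 10 gamma members, 5 were lower after SNP without overlap and none was higher without overlap, against 32.3% and 31.7% of all genes tested.

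Thinly counted members held the extremes. PCDHA3 had the highest log2 fold change, 1.04 (SE 0.524, 95% interval -0.051 to 2.13), from 2.0 and 0.708 CPM in the controls and 2.76 and 2.97 CPM after SNP. PCDHGB1 had the lowest, -0.59 (SE 0.371, edgeR adjusted p = 0.260), from 5.08 and 5.31 CPM and then 2.51 and 4.395 CPM. PCDHGB3 had a log2 fold change of -0.45, and it passed only without SNP b, at -0.90 (edgeR adjusted p = 0.0485). Precision over the set was limited: the median SE was 0.27 for the tested members, 0.231 for the 7496 genes of the same level range and 0.168 for all genes tested. The median size of the log2 fold change without its sign was 0.297 for the members and 0.332 for genes of that level range. The 95% interval lay within 1 log2 unit of 0 on both sides for 24 of 34 members, so that a doubling or a halving lies outside it, and reached 1 unit or beyond for the other 10.

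**Figure D4:**
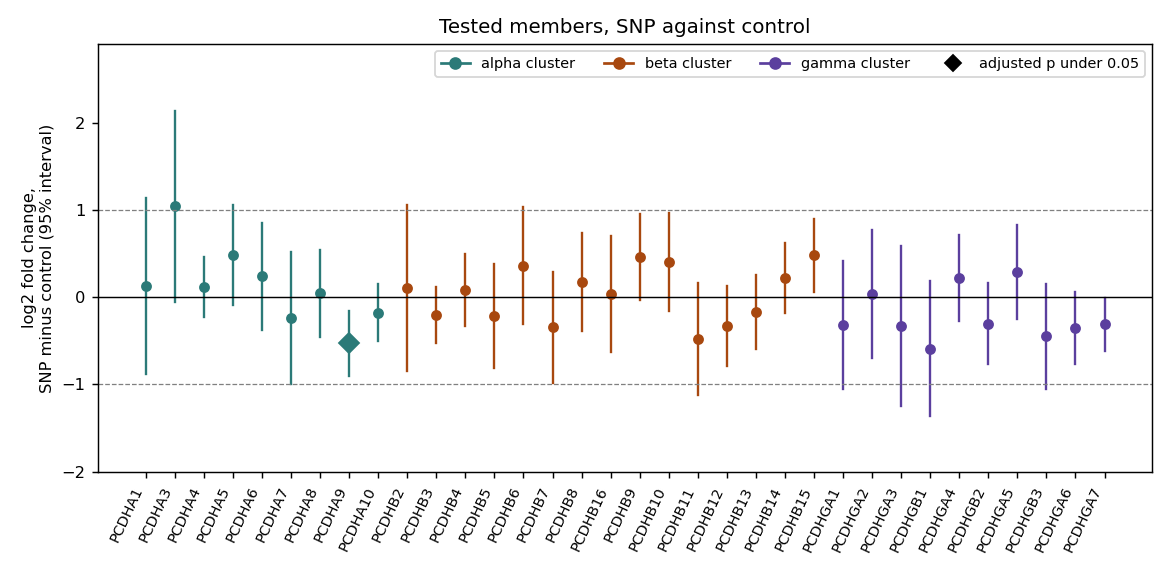
Log2 fold change, SNP minus control (vertical axis), with its 95% interval (lines) for each of the 34 tested members, in chromosomal order along the horizontal axis and coloured by cluster; the diamond marks an edgeR adjusted p under 0.05 and dashed lines stand at -1 and 1. Only the diamond of PCDHA9 (-0.53) marks a call, and 7 of 10 gamma values lie below 0.

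Summed over members, alpha and beta differed little between groups and gamma was lower after SNP on the CPM scale. The alpha sum was 109.5 and 111.9 CPM in the controls and 107.7 and 107.4 CPM after SNP, a log2 ratio of -0.042. The beta sum was 167.4 and 172.5 CPM and then 173.4 and 173.2 CPM, a log2 ratio of 0.028. The gamma sum was 111.7 and 129.3 CPM and then 95.5 and 110.0 CPM, a log2 ratio of -0.23. Both SNP libraries lay under the lower gamma control, and the gap between the closest libraries, SNP b and control a, was smaller than the gap between the 2 controls. On the TPM scale the gamma sums overlapped (log2 ratio -0.107), and the alpha sum was higher after SNP in place of lower (log2 ratio 0.125). All members together made up 0.0372% to 0.0416% of the counts of a library, 10884 counts over the 4 libraries.

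The clusters differed in base composition. G minus C was taken over all annotated transcripts of a gene together. The tested gamma members had a median of -2.65 percentage points, against -0.46 in beta, 1.88 in alpha and 1.04 over all genes tested. Over the 4479 genes between the lower and upper quartile of the tested members' G minus C, the median log2 fold change was -0.142. With offsets for length, GC content and G minus C, the gamma median was -0.014, the alpha median -0.015 and the beta median 0.245. Under these offsets 2 of the 34 tested members passed, PCDHA9 and PCDHB15, against 20.6% of all genes. The gamma median thus kept its sign under that correction but stood near 0, with PCDHGA7 at -0.014, PCDHGA6 at -0.15 and PCDHGB2 at 0.021. The part of base composition in the differences was not tested otherwise.

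Genes that lie among the members were also read. Of the 34 tested members, 18 share exon bases with genes outside the family (5 alpha, 12 beta and 1 gamma), mostly antisense genes. Counts for these could not be told apart by strand from the sources used here. AC244517.6, on the plus strand, had 0 counts in both controls and 13 and 6 after SNP. It shares 337 exon bases with PCDHB9 and 186 with PCDHB16. PCDHB9 had a log2 fold change of 0.46 and PCDHB16 of 0.036, neither past the threshold. The part of this overlap in those values was not tested. The pseudogene PCDHB18P, which lies among the beta genes and shares no exon bases with a member, had 6 and 5 counts in the controls and 9 and 13 after SNP. TAF7, a subunit of the general transcription factor TFIID encoded on the minus strand between the beta and gamma clusters (chr5:141260225-141320821), had 339 and 276 counts in the controls and 684 and 525 after SNP. It rose, with a log2 fold change of 0.61 (SE 0.132, edgeR adjusted p = 0.00178). The protocadherin neighbours of TAF7 had fewer counts and wider errors. PCDHB15 had the same direction without passing (0.48, SE 0.202), and PCDHGA1 was at -0.32 (SE 0.354). Whether TAF7 and these neighbours differed in response was not tested.

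Genes known to act on the promoters of the family changed in part. Of 11 genes of CTCF and cohesin, 4 rose and 1 fell (median log2 fold change 0.16), beside the 26.2% of all genes that passed in either direction. Among genes with a mean of 50 counts or more, where most tested genes of this and the following lists lie, 33.0% passed. SMC3, a core arm of the cohesin ring, was at 148 and 141 CPM in the controls and 283 and 239 CPM after SNP (log2 fold change 0.85, SE 0.105, edgeR adjusted p = 6.3e-06). WAPL, which releases cohesin from DNA, rose by 0.71 on the log2 scale, and STAG2, a subunit of the ring, by 0.62. SMC1A rose and MAU2 fell. CTCF itself was at 105 and 79.9 CPM in the controls and 95.2 and 92.8 CPM after SNP, with groups that overlapped and an interval from -0.24 to 0.28. With the offsets that include G minus C, SMC3 was at 0.29 and WAPL at 0.28, both still called, and STAG2 was at 0.092 and no longer called (edgeR adjusted p = 0.393).

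Of 13 genes of promoter silencing and DNA methylation, 2 rose and 2 fell (median -0.047), beside the 26.2% of all genes called. TET1, which oxidises methylated cytosine, was at 268 and 281 CPM in the controls and at 192 CPM in both SNP libraries, and it fell by 0.51 on the log2 scale. WIZ, a zinc-finger partner of the histone methyltransferases G9a and GLP, fell by 0.54. DNMT3A, a DNA methyltransferase that sets new methylation marks, was at 355 and 360 CPM and then 447 and 466 CPM, and it rose by 0.36 on the log2 scale. SMCHD1, a chromatin protein of the SMC group, also rose. The calls of WIZ and DNMT3A were lost with the G minus C offset (edgeR adjusted p = 0.408 and 0.143), and that of DNMT3A also without control a (edgeR adjusted p = 0.0555).

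Genes that act downstream of the protein were called in part, beside 26.2% of all genes and 33.0% of those averaging 50 counts or more. Of 14 genes for intracellular partners and the actin-regulating WAVE complex, none rose and 3 fell: WASF1 (log2 fold change -0.44) and WASF2 (-0.34), both WAVE proteins, and RAC1 (-0.30), the small GTPase that activates the complex. Of 8 genes for proteases that shed and cleave protocadherins, ADAM17 rose (0.32) and APH1A, a subunit of gamma-secretase, fell (-0.39). Each of these 5 calls was lost without control a, where their adjusted p in edgeR ran from 0.0873 for RAC1 to 0.447 for WASF2. Without control b the calls of WASF1 (0.0570), RAC1 (0.194), ADAM17 (0.138) and APH1A (0.134) were lost, and without SNP a those of WASF2 (0.106), ADAM17 (0.210) and APH1A (0.111), all as edgeR adjusted p. With the G minus C offset none of the 5 was called: WASF1 was at -0.18, WASF2 at -0.049, RAC1 at -0.081 and APH1A at -0.15, and ADAM17 turned to -0.041. DESeq2 did not call WASF2, ADAM17 or APH1A (adjusted p = 0.0712, 0.0566 and 0.0650).

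Relatives outside the clusters included larger falls. Of 12 non-clustered protocadherins, which are single genes at other places in the genome, 5 were tested and 3 fell, with a median of -0.40. Over all genes tested, 12.6% fell and 26.2% passed in either direction. PCDH17 was at 88.2 and 109 CPM in the controls and 49.8 and 59.3 CPM after SNP (log2 fold change -0.85, SE 0.129, edgeR adjusted p = 6.3e-05). PCDH18 was at 39.4 and 44.5 CPM and then 22.5 and 19.0 CPM (log2 fold change -1.01, edgeR adjusted p = 8.3e-05). Neither overlapped between groups, and both passed under all 14 alternatives. PCDH1 fell by 0.40, a call lost without control a, control b or SNP a (edgeR adjusted p = 0.102, 0.187 and 0.160), with DESeq2 (adjusted p = 0.103) and with the G minus C offset, where it was at -0.086 (edgeR adjusted p = 0.603). PCDH9, the best counted of the list, was at 309 and 269 CPM and then 308 and 319 CPM and overlapped.

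Of 21 classical cadherins and catenins, 9 were tested, 1 rose and 2 fell (median -0.20), beside the 26.2% of all genes called. JUP, the junction protein plakoglobin, fell by 1.15 on the log2 scale, from 44.5 and 47.5 CPM to 18.3 and 23.1 CPM. CDH24, a classical cadherin, fell by 0.77, and CTNNA1, the alpha-catenin that links cadherins to actin, rose by 0.35. The calls of CDH24 without control b (edgeR adjusted p = 0.115) and of CTNNA1 without control a (0.300), control b (0.0839) or SNP a (0.144) were lost. With the G minus C offset CDH24 was at -0.31 (edgeR adjusted p = 0.213) and CTNNA1 at 0.12 (0.404), neither called, and DESeq2 did not call CTNNA1 (adjusted p = 0.0742). Of 9 giant cadherins of the FAT, dachsous and CELSR groups, 6 were tested: FAT1 rose by 0.49 and DCHS1 fell by 0.52. DCHS1 was at -0.23 with the G minus C offset and still called (edgeR adjusted p = 0.0428).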

How the data were processed

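The authors deposited 1 table per library with raw counts per gene, RPKM and TPM, per the file headers, on GRCh38, per the submitters' processing notes. Aligner, counting tool, strand setting and treatment of reads in shared exons are not given in the sources used here. Deposited counts were tested. Deposited TPM was used to compare levels between genes. Deposited RPKM was used only to check gene lengths against GENCODE 29. Reads were 75 bases long with 40 M labelled per sample, and gene counts totalled 5613144 to 8056550.

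Genes passing filterByExpr (minimum count 10, minimum total 15) were tested with edgeR 4.0.16 in R 4.3.3: TMM normalization, quasi-likelihood test of SNP against control, Benjamini-Hochberg adjustment over 14759 genes, threshold 0.05. CPM is counts over total times TMM factor. The scripts were tested on simulated data. DESeq2 1.42.0, limma 3.58.1, other scalings, filters, offsets, a replicate block and leaving out each library were alternatives. Full values are given for members past the threshold and the 5 best counted of each cluster, and for up to 3 called genes of each other list by adjusted p; other genes, such as PCDHA3, PCDHGB1, PCDHGB3, TAF7, PCDH9, CTCF, SMC1A, MAU2 and SMCHD1, were named after their values were seen. The members and lists were chosen with earlier results of these data known. The libraries' letters a and b gave no sign of pairing (correlation of deviations 0.0502), so no block was used.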

Additional observations from a re-analysis of the deposited data

How the results depend on the processing

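Over 14 alternatives for each of 15 named members (210 values), 197 kept their direction and side of the threshold and 8 changed sign. The sign changes were PCDHA8 at -0.051 and PCDHB13 at 0.022 and PCDHGB2 at 0.021 with offsets for length, GC and G minus C, PCDHA8 at -0.073 and PCDHB4 at -0.069 without control a, and PCDHA8 at -0.19, PCDHB4 at -0.11 and PCDHGA5 at -0.045 without SNP b. ADAM17 was at -0.041 with the offsets. With 1 library left out PCDHA8 ran from -0.19 to 0.25, PCDHB4 from -0.11 to 0.26 and PCDHGA5 from -0.045 to 0.56. The cause was not tested. With the offsets for length, GC and G minus C, 3035 of all genes passed, or 20.6%. Of all genes, 3861 passed, against 2415 with DESeq2, 2224 at an adjusted p under 0.01 and 2447 to 4144 with 1 library left out (2482 without control a, 2447 without control b). Of the members 1 passed, against 2 with the offsets, 0 with DESeq2, 0 at an adjusted p under 0.01 and 0 to 1 with 1 library left out (0 without control a or control b). Of the 7 other lists 22 genes passed, against 13 at an adjusted p under 0.01 and 12 to 26 with 1 library left out (12 without either control). Summed TPM gave log2 ratios of 0.125 for alpha (CPM -0.042), 0.145 for beta (CPM 0.028) and 0.076 for all members (CPM -0.064); gamma was at -0.11 on the TPM scale (CPM -0.23) and at -0.33 to -0.12 on the CPM scale with 1 library left out. With the letters a and b as a replicate block, 4487 genes, 1 member (PCDHA9, adjusted p = 0.0236 in edgeR) and 25 genes of the other lists passed; the deviations of libraries with the same letter correlated at 0.0502. Leaving out a library left a group with a lone sample, assumed to vary like the other group. Counts of uniquely assigned reads were an alternative that was not run, because the tables used hold no such column. Counts were too few to test 19 members, and the intervals of another 10 reach 1 log2 unit.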
